A study of Rattus norvegicus with 6 samples.

Results

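The estrogen receptor gene Esr1, the receptor cofactors Ncoa3 and Nrip1, and 7 genes for secreted or surface proteins of hormone-responsive epithelium (C3, Clu, Fn1, Muc1, Spp1, Lcn2 and Kap) were described in wild-type and miR-203 knockout RUCA-I cells. RUCA-I is an epithelial line from an adenocarcinoma of the rat uterine lining, of the Lewis strain. The 10 genes were chosen by their known roles and by their deposited WT and KO values and calls, and every row of the deposited gene table that carries one of the symbols was taken. Of the 10, 9 had a row, among 11818 symbols in the table; Spp1, which encodes osteopontin, had no row under its symbol and was not analysed here. Lcn2 had 2 rows with the same locus, and the row with the higher level was taken as its main row, a choice made after the values were seen.

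The WT group was 3 batches of wild-type cells. The knockout (KO) group, genotype miR-203 -/-, was 3 lines, each made independently. All cells were untreated and grown nearly to confluence on plastic in serum-containing medium, and the labels name no hormone added to either group. The labels do not say how the knockout was made, and genotype cannot be told apart from properties of the lines. The table gives 1 FPKM value per gene row and group (sequenced fragments divided by the length of the transcript and by the size of the library). The spread over the samples and their depth are therefore unknown, and only the authors' own Cuffdiff test bears on that spread. A row was counted as called where the authors' q, a p-value adjusted over every tested row, was under 0.05. These calls helped to choose the genes described here and are given as a description.

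Estrogen receptor alpha, the product of Esr1, is a nuclear receptor that binds DNA when it holds its hormone and recruits coactivators or corepressors. In the uterus, estrogen drives growth and secretion of the epithelium, and the secreted proteins include complement C3, lipocalin 2 and mucins. Some of these genes also respond to androgens, progesterone, cytokines or cell injury, so their level is no measure of estrogen action alone.

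The mature microRNA that gives the knockout its name is shown first, with its seed, the bases that pair with target transcripts, in capitals. RefSeq places it on GRCr8 chr6:137020756-137020777, plus strand. The labels do not say which arm or how much of the locus was removed.

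rno-miR-203a-3p: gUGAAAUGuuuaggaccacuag

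Promoters are shown for C3 and Kap, which fell in KO cells, and for Lcn2, a secreted member that was not called. The table of RefSeq promoters used here matched 7 of the 10 genes; promoters of Clu, Fn1 and Ncoa3 were not analysed here. The 250 bases before the annotated start are printed, on the strand of the gene (minus for C3, Kap and Lcn2), on GRCr8. C3 lies at chr9:2201340-2201589, Kap at chr4:168409033-168409282 and Lcn2 at chr3:36081781-36082030. Capitals mark a match to one of 4 searched motifs on either strand.

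C3: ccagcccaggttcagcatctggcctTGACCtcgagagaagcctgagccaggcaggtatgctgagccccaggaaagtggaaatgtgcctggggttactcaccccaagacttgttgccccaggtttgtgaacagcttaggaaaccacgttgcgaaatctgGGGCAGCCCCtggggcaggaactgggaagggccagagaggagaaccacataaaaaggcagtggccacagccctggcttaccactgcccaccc

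Kap: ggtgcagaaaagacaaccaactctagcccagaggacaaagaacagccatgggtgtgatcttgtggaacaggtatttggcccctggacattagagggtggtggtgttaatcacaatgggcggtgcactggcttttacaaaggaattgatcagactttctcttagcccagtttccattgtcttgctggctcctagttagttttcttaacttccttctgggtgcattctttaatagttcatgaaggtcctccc

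Lcn2: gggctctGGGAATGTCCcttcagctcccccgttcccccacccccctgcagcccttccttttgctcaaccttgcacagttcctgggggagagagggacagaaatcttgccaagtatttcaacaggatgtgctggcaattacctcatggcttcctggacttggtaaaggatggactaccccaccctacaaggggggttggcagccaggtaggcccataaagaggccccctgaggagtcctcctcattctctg

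The motifs were the palindromic estrogen response element (GGTCA and TGACC, 3 bases apart), its core GGTCA alone (which the palindrome contains), the AP-1 element TGANTCA, and a kB element (GGG, any 2 bases, T, any 2 bases, CC). The palindrome matched none of the 7 promoters and 0.0239% of 33465 RefSeq promoters of the same length. The core matched that of C3 only, as TGACC read on the strand of the gene, and 35.4% of all promoters. The kB element matched C3 (from position −92) and Lcn2 (GGGAATGTCC, from position −243), counted back from the annotated start, and 15.0% of all promoters. The C3 match lies on the opposite strand and reads GGGCAGCCCC on the strand of the gene. AP-1 matched none of the 7 and 6.34% of all promoters. The printed Kap stretch held none of the motifs and had 46.4% G and C, against 58.8% for C3 and a median of 51.2% over all promoters. These are matches of letters, and binding was not measured.

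In the deposited values, 3 secreted members were lower in KO cells and called, namely Kap, Clu and C3, and no member was called higher. The receptor and both cofactors stood within 0.18 of equality on the log2 scale, and none of them was called. Fn1, Muc1 and Lcn2 were not called either. Calls made up 1.05% of the 26459 rows tested in the authors' deposited table (0.556% lower and 0.491% higher in KO cells). The members were picked with these calls known, so nothing is read from the difference in share. In bulk RNA of this kind, fewer cells that express a gene and less RNA per cell cannot be told apart.

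**Figure D1:**
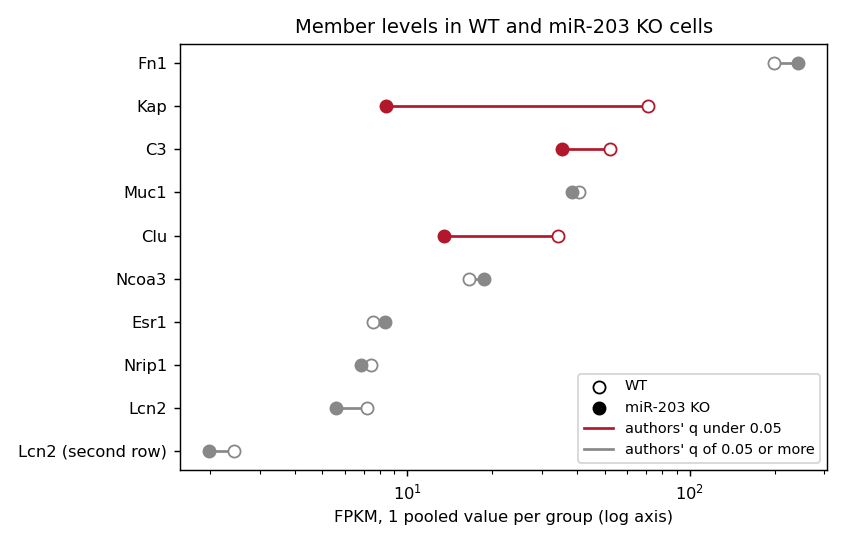
Levels of the 9 measured members, with both Lcn2 rows, in FPKM on a log axis; open points are WT and filled points KO, 1 pooled value each, so there are no error bars. The red pairs, Kap (71.3 to 8.40), Clu (34.3 to 13.5) and C3 (52.3 to 35.4), have an authors' q under 0.05, and the grey pairs do not.

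Esr1 was present at a moderate level in both groups. WT cells had 7.58 FPKM and KO cells 8.32 FPKM at its row (rn6 chromosome 1, 41323121 to 41594796), and the authors' deposited table gives q = 0.997. The WT level was at or above that of 47.2% of the 18090 tested rows whose mean over both groups reached 1 FPKM, and the KO level at or above 49.03%. The receptor thus lay near the middle of the measured transcripts in both groups, and its ratio of 1.10 changed sides under another scaling (log2 −0.03 with both groups scaled to the same sum).

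Ncoa3 encodes a coactivator of the steroid receptor coactivator family, also known as AIB1. It stood at 16.5 FPKM in WT and 18.6 FPKM in KO cells (chromosome 3, 162692202 to 162790661), a ratio of 1.13; the authors' deposited table gives q = 0.997. Nrip1 encodes RIP140, a cofactor that represses transcription when bound to the receptor and is itself an estrogen target. It stood at 7.45 FPKM in WT and 6.87 FPKM in KO cells (chromosome 11, 14658224 to 14741513), a ratio of 0.922; the authors' deposited table gives q = 0.997. Ncoa3 was 2.18 times the level of Esr1 in WT and 2.24 times in KO cells, while Nrip1 was 0.983 and 0.826 times the level of Esr1. The coactivator thus had the higher value of the 2 cofactors in both groups. With no spread per group, neighbours in the order of levels, such as Esr1 and Nrip1, cannot be said to differ.

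Kap, kidney androgen-regulated protein, is a small secreted protein first known from the proximal tubule of the rodent kidney, where androgens control it. It had the largest change of the members. Its row (chromosome 4, 167549657 to 167552982) fell from 71.3 FPKM in WT to 8.40 FPKM in KO cells, 8.48-fold, or a log2 change of −3.08; the authors' deposited table gives q = 0.00756. It was second only to Fn1 among the members in WT cells and sixth in KO cells, where it stood beside Esr1 (8.32 FPKM). Its WT level was at or above that of 89.5% of rows and its KO level of 49.2%. Among called rows above 0 in both groups, 4 fell by a larger factor than Kap, also with a minimum of 1 FPKM in either group. Of the other 8 genes on a list of kidney tubule markers, mostly of the proximal tubule, 7 had no row. Cubn, the endocytic receptor cubilin, had 2.42 FPKM in WT and 1.74 FPKM in KO cells, without a call. Its log2 fold in the authors' deposited table has the other sign (0.60), and its row (chromosome 17, 80643963 to 80650660) may not span the gene.

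Clu, or clusterin, is a secreted chaperone that also restrains the terminal complement complex, and it is known to rise in hormone-dependent organs that regress after hormone withdrawal. Its row (chromosome 15, 42653491 to 42665859) fell from 34.3 FPKM in WT to 13.5 FPKM in KO cells, 2.54-fold; the authors' deposited table gives q = 0.00756. The KO level was 39.4% of the WT level. Kap was 2.08 times as high as Clu in WT cells and 0.622 times in KO cells, so their order turned.

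C3, the central component of complement, is made by the uterine epithelium of the rat under estrogen and is also induced by inflammatory cytokines. Its row (chromosome 9, 9721153 to 9747083) fell from 52.3 FPKM in WT to 35.4 FPKM in KO cells, 1.48-fold; the authors' deposited table gives q = 0.00756. It was the third most abundant member in both groups. The p of Kap, Clu and C3 was 5e-05 in the authors' deposited table, the smallest p there, shared by 175 called rows, so it does not order the 3 genes.

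Fn1 encodes fibronectin, a matrix protein that cells bind through integrins. It was the most abundant member, at 199 FPKM in WT and 242 FPKM in KO cells (chromosome 9, 78899875 to 78969047). Its ratio of 1.22 had p = 0.0185 but q = 0.573 in the authors' deposited table and was not called. Both levels were among the highest in the table, at or above 95.8% of rows in WT and 96.6% in KO cells.

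Muc1, the membrane-bound mucin of the luminal surface, showed almost the same value in both groups. It stood at 40.5 FPKM in WT and 38.2 FPKM in KO cells (chromosome 2, 188542883 to 188559874), a ratio of 0.945; the authors' deposited table gives q = 0.997. Kap was 1.76 times as high as Muc1 in WT cells and 0.2197 times in KO cells. The listed locus of Muc1 is shared with Trim46, which has rows of its own.

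Lcn2, or lipocalin 2, is a secreted protein that binds bacterial siderophores and is induced by NF-kB and, in the rodent uterus, by estrogen. WT cells had 7.22 FPKM and KO cells 5.60 FPKM at its main row (chromosome 3, 11414187 to 11417610), a ratio of 0.776; the authors' deposited table gives q = 0.948. The other row at the same locus stood at 2.44 FPKM in WT and 1.99 FPKM in KO cells; the authors' deposited table gives q = 0.997. Both rows had the lower value in KO cells without being called, and the main row was the lowest member in each group.

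**Figure D2:**
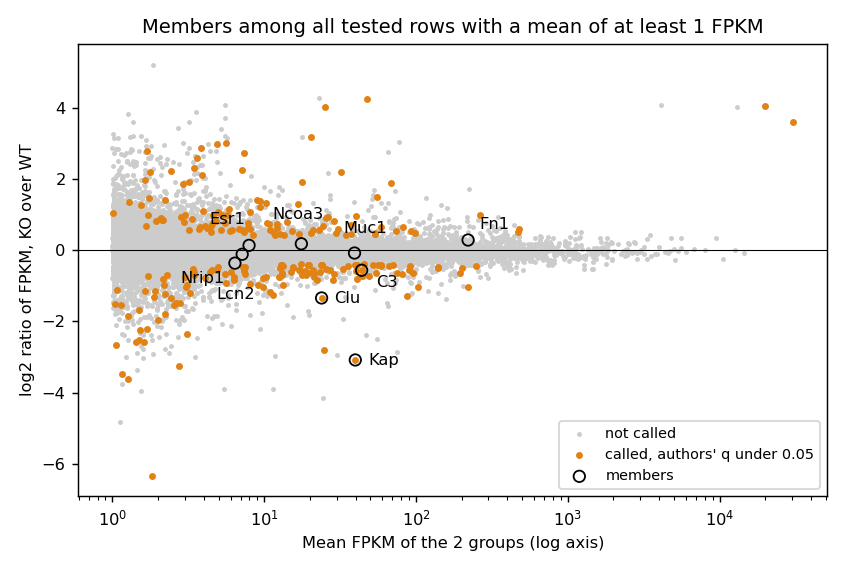
Each point is a tested row whose mean reached 1 FPKM, with values above 0 in both groups; the horizontal axis is the mean FPKM of the 2 groups (log axis) and the vertical axis the log2 ratio of KO over WT. Orange rows have an authors' q under 0.05. Kap (−3.08), Clu (−1.34) and C3 (−0.57) are called and lie below 0, and the other 6 members are not called. Among called rows above 0 in both groups and of at least 1 FPKM in either, 4 fell by more than Kap. In the same rows, 29 fell by more than Clu and 91 by more than C3. Rows that were not called can also lie low, such as LOC690271 (29.6 to 9.02 FPKM).

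Rows around each member, within 1 Mb and again with a mean that reached 1 FPKM, were compared with it; several rows can belong to 1 gene. Around Kap none of 13 rows was called by Cuffdiff (1 had an unadjusted p under 0.05), 9 were higher in KO cells (5 with both groups scaled to the same sum) and their median log2 ratio was 0.09, against −3.08 for Kap. Around C3 none of 35 rows was called by Cuffdiff or had an unadjusted p under 0.05, and the median was 0.01. Of these rows, 18 were higher in KO cells (7 with both groups scaled to the same sum). Around Clu 1 of 22 rows was called, Ebpl, which fell from 22.3 to 14.8 FPKM, and the median was −0.02. Of the 22 rows, 10 were higher in KO cells (3 with both groups scaled to the same sum). The lowest ratio among the neighbours was −0.299 around Kap, −0.591 around Clu and −0.496 around C3, so each of these members lay below every row beside it. Kap, Clu and C3 were chosen with their decreases known, and a gene called lower mostly lies below rows that changed little. Nothing is read from this place.

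Ncoa3 lay among its neighbours. Of 25 rows within 1 Mb of it on the distal part of chromosome 3, 23 were higher in KO cells, with a median log2 ratio of 0.17, beside 0.18 for Ncoa3 itself; with both groups scaled to the same sum, 13 were higher and Ncoa3 stood at 0.01. Slc13a3, a carrier of dicarboxylates, was the only called row among them and rose from 8.08 to 13.4 FPKM. The part of the neighbourhood in the value of Ncoa3 was not tested. Around Esr1 none of 16 rows was called by Cuffdiff (3 had an unadjusted p under 0.05). Of the 16 rows, 7 were higher in KO cells, with a median of −0.05, but with both groups scaled to the same sum only 1 was higher, with a median of −0.22. Around Fn1 9 of 11 rows were higher (5 with that scaling), with a median of 0.09. Around Nrip1 none of 4 rows was higher with or without it, with a median of −0.36. Around Muc1 28 of 74 rows were higher (10 with that scaling), with a median of −0.05. For Lcn2, 24 of 47 rows were higher (12 with that scaling), with a median of 0.002. Cuffdiff called no row around Fn1, Nrip1, Muc1 or Lcn2, and 1, 0, 1 and 5 rows had an unadjusted p under 0.05.

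**Figure D3:**
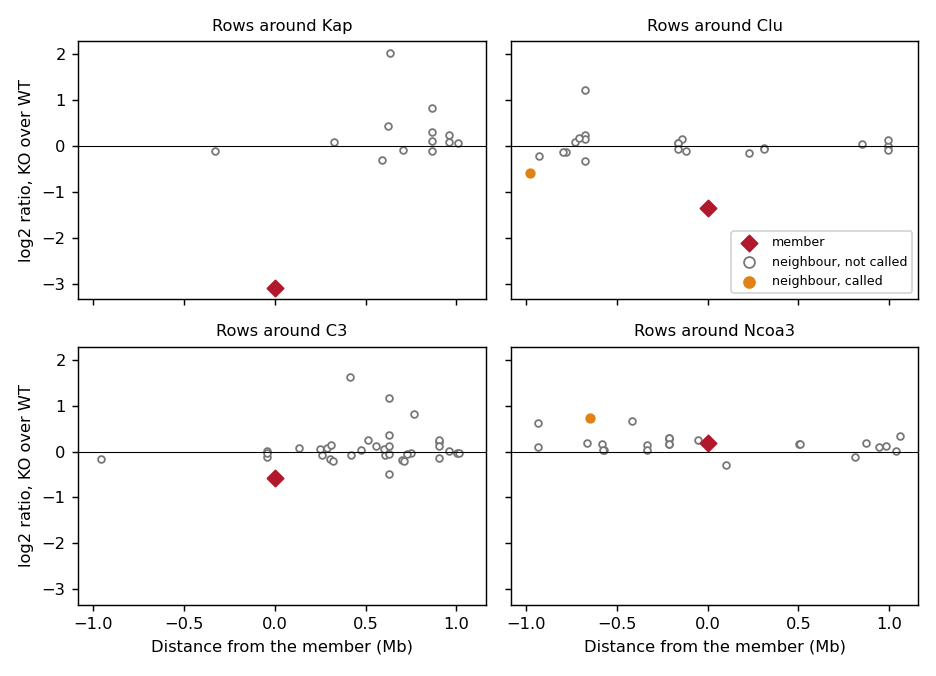
Log2 ratio of KO over WT of the tested rows within 1 Mb of Kap, Clu, C3 and Ncoa3, against the distance of their centres from the member in Mb. Red diamonds are the members and orange points are called neighbours. The diamonds of Kap, Clu and C3, chosen with their decreases known, lie below all of their plotted neighbours, and nothing is read from this. That of Ncoa3 lies among neighbours of which 23 of 25 are above 0 (13 with both groups scaled to the same sum).

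Related genes were taken from 5 lists, chosen with earlier results of these data known. Genes below a mean of 1 FPKM were left out, and medians are of log2((KO + 1)/(WT + 1)), which understates changes of low genes. Over the 18090 tested rows with that level the median was 0.005 and 1.33% were called (0.708% lower and 0.619% higher in KO cells). Scaling both groups to the same sum lowers every log2 ratio, with a shift of −0.16. A positive list median nearer to 0 than that can turn negative under it, while a negative one stays negative. Of the 5 list medians, only that of the receptors and coregulators was above 0 (0.03). Only the median of the hormone-responsive list is farther from 0 than the shift.

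Receptors and coregulators, Esr1 included, held no call by the authors' Cuffdiff test in either direction. Of 36 genes on that list, 27 were used, 16 were higher and 11 lower in KO cells, 1 had an unadjusted p under 0.05, and the median was 0.03. Esr2, Gper1 and Pgr, the genes of the second estrogen receptor, the membrane estrogen receptor and the progesterone receptor, had no row under their symbols and were not analysed here. Nr3c1, the glucocorticoid receptor, stood at 15.5 FPKM in WT and 16.6 FPKM in KO cells. Foxa1, a pioneer factor for steroid receptors, stood at 9.40 and 10.6 FPKM, and Foxa2, the factor of uterine glands, at 0.213 and 0.628 FPKM, under the level used for the count.

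Genes that respond to estrogen or progesterone in uterus or breast held further decreases. Of 34 genes, 16 were used, 6 fell, none rose and 10 were not called, with a median of −0.31. None of the members is on that list. Sgk1, a kinase that acts on sodium channels and is induced by steroids, fell from 52.1 to 29.9 FPKM, 1.74-fold. Cited2, a transcriptional coregulator, fell from 12.4 to 7.22 FPKM, 1.72-fold. Wnt7a, a Wnt ligand of the uterine epithelium, fell from 21.8 to 13.5 FPKM, 1.61-fold. These 3 had q = 0.00756 in the authors' deposited table.

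Smaller decreases were called for Hbegf, a ligand of the EGF receptor (18.2 to 12.9 FPKM; the authors' deposited table gives q = 0.00756), for Vegfa, an angiogenic factor (27.6 to 20.5 FPKM; the authors' deposited table gives q = 0.0187), and for Fosl1, an AP-1 subunit (22.4 to 16.9 FPKM; the authors' deposited table gives q = 0.0351). Each of the 6 genes also responds to signals other than steroids. Greb1, a frequently used estrogen target, stood at 0.501 FPKM in WT and 0.296 FPKM in KO cells; the authors' deposited table gives q = 0.997. Ltf, lactoferrin, had no row under its symbol.

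Uterine secretory and luminal genes changed in both directions. All 23 genes with a row were used, of 34 listed; 4 fell, 3 rose and 16 were not called, with a median of −0.07. Without the members the list had 1 decrease and 3 increases among 17 genes, with a median of 0.07. Lamb3, the beta chain of laminin-332, fell from 61.2 to 36.8 FPKM (the authors' deposited table gives q = 0.00756). Tgm2, transglutaminase 2, which crosslinks proteins, rose from 179 to 352 FPKM, 1.97-fold (the authors' deposited table gives q = 0.00756). Pigr, the receptor that carries IgA across epithelium, rose from 3.12 to 6.12 FPKM, 1.96-fold (the authors' deposited table gives q = 0.00756). Aqp5, a water channel of secretory epithelium, rose from 60.6 to 88.1 FPKM, 1.45-fold (the authors' deposited table gives q = 0.0137). The secretory genes thus did not share 1 direction.

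**Figure D4:**
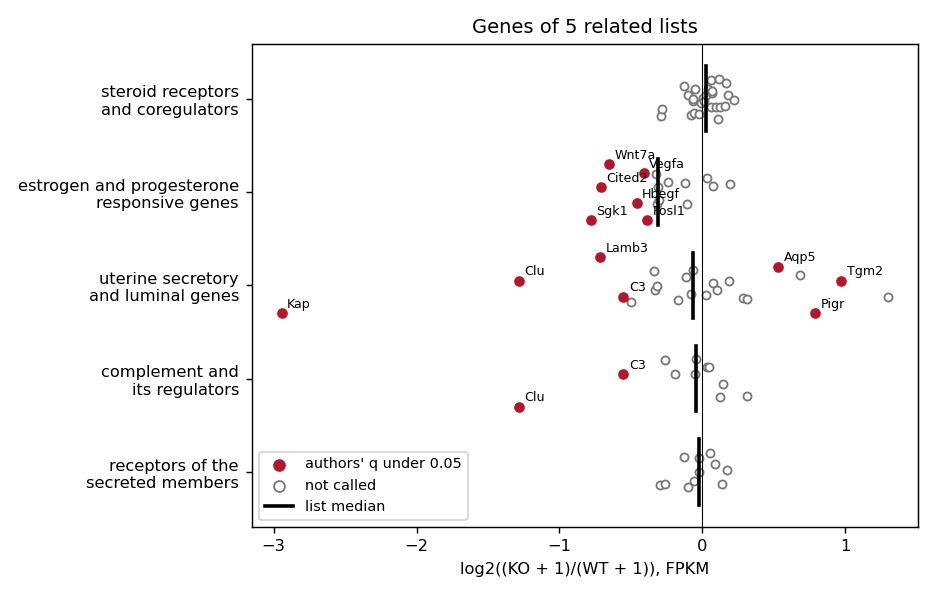
Each point is a gene of a list whose mean reached 1 FPKM, placed by log2((KO + 1)/(WT + 1)); the vertical scatter only separates points, and thick bars are list medians. Red, labelled genes have an authors' q under 0.05: 6 estrogen or progesterone responsive genes lie below 0, while Tgm2, Pigr and Aqp5 lie above 0 among the secretory genes.

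Among complement genes, C3 and Clu were the only calls. Of 30 genes, 11 were used, 2 fell and 9 were not called, with a median of −0.05; without these members the median of the other 9 was 0.03. C1r, a protease of the classical pathway, stood at 9.82 FPKM in WT and 12.4 FPKM in KO cells. Cfi, the protease that inactivates C3b, stood at 7.92 and 7.63 FPKM. Of 23 genes for receptors of the secreted members, 11 were used and the authors' Cuffdiff test called none, with 1 unadjusted p under 0.05 and a median of −0.03. The integrin chain Itgb1, part of fibronectin and osteopontin receptors, stood at 315.1 FPKM in WT and 309.9 FPKM in KO cells. Cd44, a receptor of osteopontin and hyaluronan, stood at 135.0 and 125.5 FPKM.

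The cell type was checked with markers. Of 17 markers of endometrial epithelium, 13 had a row and none was called by the authors' Cuffdiff test; 4 of the 12 with a mean of at least 1 FPKM had an unadjusted p under 0.05. Their summed level was 1796 FPKM in WT and 1779 FPKM in KO cells. Krt19, Msx1, Hoxa10 and Hoxa11 had no row. Of 12 stromal markers, 2 had a row, Vim (439.6 and 429.3 FPKM) and Col1a1 (1.43 and 1.17 FPKM), so only Vim was high. The Col1a1 row is a short locus (chromosome 10, 82760104 to 82760657) that may not stand for the whole gene. Of 6 smooth muscle markers 3 had a row, with a sum of 30.7 FPKM in WT and 31.4 FPKM in KO cells that came mostly from Smtn. None of the 6 endothelial markers had a row. Of 9 leukocyte markers, Cd79a (31.7 and 23.9 FPKM, not called) and Csf1r had a row; Csf1r, the receptor of the macrophage growth factor, fell from 0.791 to 0.2004 FPKM (the authors' deposited table gives q = 0.0187). The leukocyte sum thus went from 32.5 FPKM (WT) to 24.1 FPKM (KO), and nearly all of it was the uncalled row of Cd79a. The remaining 7 markers had no row, so this sum does not show that leukocytes were present in the epithelial line. It was lower in the same group as Kap, Clu and C3, but its part in those decreases was not tested.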

How the data were processed

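Stranded (dUTP) libraries were made from total RNA of 3 WT and 3 KO samples, per the labels' protocols. TopHat 0.9, Cufflinks 2.2.1, Cuffdiff 2.2.1.3 and the build rn6 are named in the submitters' processing notes; the annotation and options are not known here. The authors deposited, per the file headers, 1 FPKM value per row and group, with a log2 fold change, a test statistic (a score, not used here), a p-value and a q-value. FPKM keeps no read depth and is unstable for short loci. Of 26751 rows, 26459 were tested.

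A limma test was planned for the case of values per sample; with 1 per group, none was run. The main row of a symbol was its longest locus. Folds are ratios of the deposited FPKM and matched the authors' log2 folds for every member row. In 3 list genes, none called, the 2 differed by over 0.01. Members, lists and motifs were chosen with earlier results of these data known. Genes named are the members, up to 6 called genes per list, Esr2, Pgr, Greb1, Foxa2 and Ltf. Gper1, Nr3c1, Foxa1, Ccnd1, Xbp1, Lif, C1r, Cfi, Itgb1, Cd44, Ebpl, Slc13a3 and the markers were named after their values were seen. Row choice, adjustment and motif search were tested on simulated data. Transcript sequences for a miR-203 seed search were not used here. Python 3.11.15, pandas 2.3.3, NumPy 2.4.6 and Matplotlib 3.10.9 were used.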

Additional observations from a re-analysis of the deposited data

How the results depend on the processing

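The 3 called members stayed 3 at q under 0.01 or 0.1, with q adjusted again over rows whose mean reached 1 or 5 FPKM, and with the row of highest mean. The cut-offs of 0.01 and 0.1 could not change this count. Cuffdiff gave all 3 a q of 0.00756, and the lowest q of another member was 0.573 (Fn1). The row of highest mean was also the main row of every member. With a fold of at least 1.5 as well, 2 were left, since C3 fell 1.48-fold. Over 8 alternatives, 71 of 72 member ratios kept their sign and none moved by over 1.5 times. The exception was Esr1, at −0.03 with both groups scaled to the same sum, a scaling that shifts every log2 ratio by −0.16, or by −0.07 without loci under 300 bp. Most of these alternatives could not turn a sign. A pseudocount never does, only Lcn2 has a second row, and the authors' fold is the same ratio. Each scaling is 1 common shift, too small to move a ratio by 1.5 times. The count of kept signs is therefore no measure of robustness. Leaving out the members, a choice made after seeing the data like the scaling without short loci and the authors' fold column, reduced the calls of the secretory list from 7 to 4 and of the complement list from 2 to 0, which follows from removing called genes. The other list counts lay within 1.5 times. No paired analysis was possible because each group has a single pooled value. The replicate block and leaving out each replicate were therefore not run, and the seed search was not run for want of transcripts. The depth of each sample is unknown.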

Other observations

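With only 2 pooled values per row, likeness to a member is a description of level. The rows nearest to Esr1 in log2(FPKM + 1) were Rb1 (7.62 FPKM in WT and 8.31 FPKM in KO cells), LOC691113 (7.55 and 8.34 FPKM) and Zfyve27 (7.60 and 8.36 FPKM). Kap had no searched row as close. The nearest was Cd74, a chaperone of MHC class II molecules, which had 43.7 FPKM in WT and 6.25 FPKM in KO cells, a called decrease (the authors' deposited table gives q = 0.00756). The next were LOC690271 (29.6 and 9.02 FPKM) and Nusap1 (48.7 and 19.4 FPKM), neither of which was called. The distance of Cd74 from Kap was 0.789 on the log2 scale, and that of Rb1 from Esr1 was 0.00697.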
